A study of Danio rerio with 6 samples.

Results

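The lens crystallins were 57 of the 36191 genes listed in the expression tables. They were chosen by name, as every gene whose symbol begins like that of an alpha (crya), beta (cryb) or gamma (cryg) crystallin, and comprised 3 alpha, 13 beta and 41 gamma genes. Cryptochromes and the enzymes cryl1 and cryz share the first letters but were not included. The series has 3 RNA sequencing libraries from zebrafish given graphene oxide nanoparticles, a sheet-like carbon nanomaterial, and 3 libraries from controls. All 6 come from wild type fish of the AB strain, 3 months old, and all are labelled as liver. Neither the dose nor the length of exposure nor the number of fish per library is stated in the labels. They also do not say whether replicates are separate animals, so each p-value reflects the spread among the libraries alone, and that spread may be technical.

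Crystallins are the water-soluble proteins that fill the fibre cells of the eye lens and give it its refractive power. Alpha crystallins belong to the small heat shock proteins and act as chaperones, while beta and gamma crystallins share a fold of Greek key motifs and are mainly structural. Fish lenses are especially rich in gamma M crystallins, a methionine-rich branch of the gamma class that is encoded by large tandem gene arrays in zebrafish. Gamma N crystallins are close to the branch point of the beta and gamma families, and gamma S crystallins are a further structural branch. Liver is not a tissue in which beta and gamma crystallins are known as abundant transcripts.

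Total estimated counts were 10758979, 12614165 and 10774455 in the graphene oxide libraries and 9739760, 12998273 and 11586298 in the control libraries. The tissue label was checked against 15 hepatocyte genes. Their summed level, in TMM-scaled CPM (counts relative to a library size adjusted for composition), was 221, 213 and 13143 in graphene oxide replicates 1, 2 and 3, and 776, 777 and 11745 in control replicates 1, 2 and 3. Both replicate 3 libraries thus stood far above the other 4, and results are given with and without them. The summed crystallin level exceeded that of the hepatocyte genes in replicates 1 and 2 of both groups and lay below it in replicate 3 of both groups. A list of 13 skeletal muscle genes summed to more than the hepatocyte genes in every library. Its sums were 57586 to 75591 CPM with graphene oxide and 55959 to 87032 CPM in control.

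Crystallin transcripts took 1.183% (95% Wilson interval 1.177% to 1.190%), 1.165% (1.159% to 1.171%) and 0.671% (0.667% to 0.676%) of all counts in graphene oxide replicates 1, 2 and 3. In control replicates 1, 2 and 3 they took 0.860% (0.854% to 0.866%), 0.845% (0.840% to 0.850%) and 0.804% (0.799% to 0.809%). These intervals cover counting error only. Because crystallin mRNAs are short, their share is larger per length. In TPM, which divides counts by transcript length and scales each library to the same sum, they made up 3.46%, 3.43% and 1.77% of the graphene oxide libraries and 2.34%, 2.31% and 2.14% of the control libraries. Graphene oxide replicate 3 was the lowest of the 6 libraries on both scales, and graphene oxide replicates 1 and 2 were the highest.

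The genes split into a high and a low group with nothing between. By mean TPM over the 6 libraries, 32 genes lay at 100 or more, with crybb1l1 lowest among them at 165. The highest of the others was crygm5 at 13.5 TPM. A further 11 genes had a mean of 1 to under 100 TPM, 9 lay above 0 and under 1 TPM, and 5 had 0 counts in every library. Of all 36191 genes, ranked by mean TPM, the top 200 held 16 crystallins and the top 500 held 30.

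**Figure D1:**
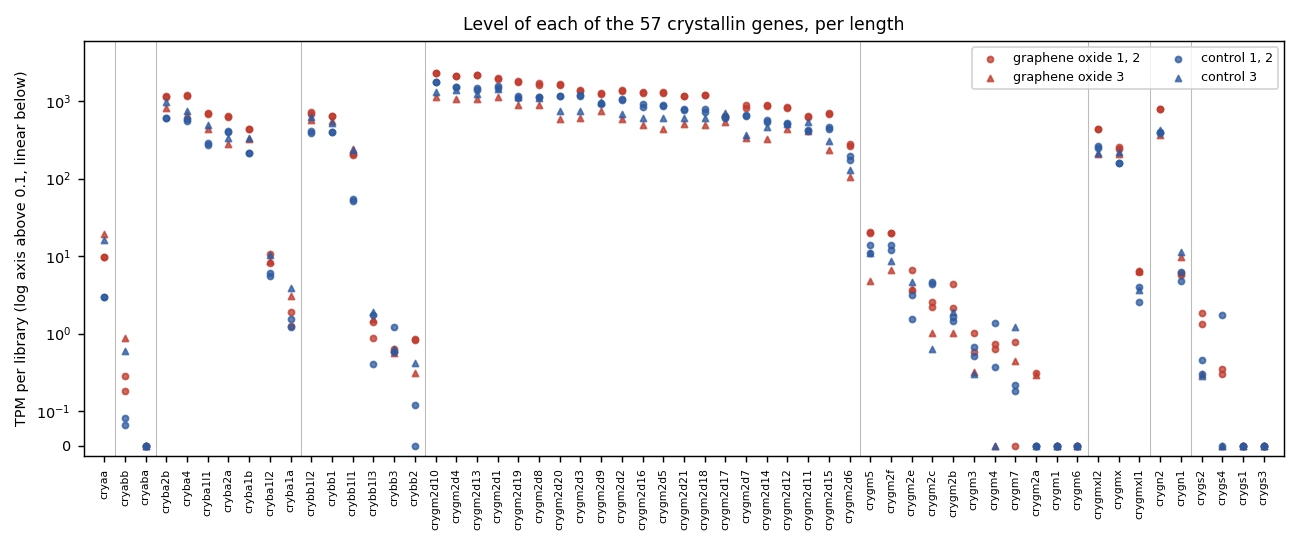
Level of each of the 57 crystallin genes in TPM, by class, on an axis that is logarithmic above 0.1 and linear below. Circles are replicates 1 and 2 and triangles replicate 3, in red for graphene oxide and blue for control. All 21 gamma M2d genes lie in the upper group, while 5 genes sit at 0 in every library.

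Among the gamma crystallins, the 21 genes named crygm2d1 to crygm2d21 carried most of the signal. Each of these gamma M2d genes had a mean of at least 189 TPM, and together they made up 79.2%, 79.3% and 73.3% of crystallin TPM with graphene oxide and 83.8%, 83.7% and 75.8% in control. The highest was crygm2d10 (gene ID 100126134), at 2293, 2290 and 1116 TPM in graphene oxide replicates 1, 2 and 3 and 1756, 1750 and 1325 TPM in control replicates 1, 2 and 3. Next by mean were crygm2d4 (1610.5 TPM), crygm2d13 (1593 TPM) and crygm2d1 (1589 TPM), differences far smaller than the spread of any of them over the libraries. They were followed by crygm2d19, at 1815, 1740 and 893 TPM with graphene oxide against 1173, 1100 and 1139 TPM in control libraries. After it came crygm2d8, crygm2d20 and crygm2d3, with means of 1265, 1154 and 1076 TPM. In all 8 of these genes graphene oxide replicates 1 and 2 were the highest libraries and graphene oxide replicate 3 the lowest. The lowest of the array was crygm2d6, with a mean of 189 TPM. Its highest library, at 276 TPM, lay below the lowest library of crygm2d10.

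The other 11 gamma M genes were scarce or without counts. The highest, crygm5 (474328) and crygm2f, averaged 13.5 and 13.4 TPM. Neither crygm1 nor crygm6 had a count in any library. For these and the other genes without counts, 0 counts still allow up to 3 counts per library, which is 0.279, 0.238 and 0.278 unscaled CPM in the graphene oxide libraries and 0.308, 0.231 and 0.259 in the control libraries. All 4 gamma S genes were at or near 0. Neither crygs1 nor crygs3 had a count, while crygs2 and crygs4 had 16 and 7 counts over all libraries together.

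The gamma N and gamma MX branches held 1 and 2 abundant genes. The gamma N gene crygn2 (445034) was at 783, 780 and 364 TPM with graphene oxide and 388, 395 and 418 TPM in control, while its relative crygn1 averaged 7.29 TPM. In the gamma MX branch, crygmxl2 (554132) was at 437, 441 and 205 TPM with graphene oxide and 265, 250 and 211 TPM in control libraries. The nearby gene crygmx (335789) was at 258, 241 and 209 TPM against 161, 159 and 220 TPM, and crygmxl1 averaged 4.84 TPM. The abundant crygn2 was higher in graphene oxide replicates 1 and 2 than in every other library, and lowest in graphene oxide replicate 3.

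Beta crystallins, which form dimers and larger oligomers in the lens, were present as 8 abundant and 5 scarce genes. In the acidic beta A branch, cryba2b (436857) was at 1153, 1119 and 817 TPM with graphene oxide and 605, 597 and 986 TPM in control. The next, cryba4 (553178), was at 1180, 1158 and 665 TPM with graphene oxide and 557, 591 and 739 TPM in control. Their means of 880 and 815 TPM did not differ beyond the spread over libraries. Below them, cryba1l1 (550433) was at 693, 682 and 437 TPM with graphene oxide and 286, 274 and 493 TPM in control. Next came cryba2a and cryba1b with means of 448 and 324 TPM, and far below these cryba1l2 at 8.23 and cryba1a at 2.13 TPM. Control replicate 3 lay above control replicates 1 and 2 in all of these beta A genes except cryba2a.

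In the basic beta B branch, crybb1l2 (560055) and crybb1 (114418) averaged 562 and 526 TPM. The related crybb1l1 (553473) was at 208, 201 and 242 TPM with graphene oxide and 51.7, 54.0 and 236 TPM in control, so that only control replicates 1 and 2 were low. The remaining beta B genes crybb1l3, crybb3 and crybb2 averaged 1.3, 0.700 and 0.418 TPM. In mammals crybb2 encodes a major lens protein.

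Alpha crystallins were scarce. The lens chaperone gene cryaa (100000769) was at 9.77, 9.74 and 19.2 TPM with graphene oxide and 2.96, 3.0 and 16.0 TPM in control. The alpha B gene cryabb had 37 counts in all and a mean of 0.345 TPM, and the other alpha B gene, cryaba, had 0 counts in every library. Together the 3 alpha genes made up 0.0287%, 0.0292% and 0.113% of crystallin TPM with graphene oxide and 0.0129%, 0.0133% and 0.0775% in control. Both alpha genes with counts were highest in the replicate 3 library of their group.

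**Figure D2:**
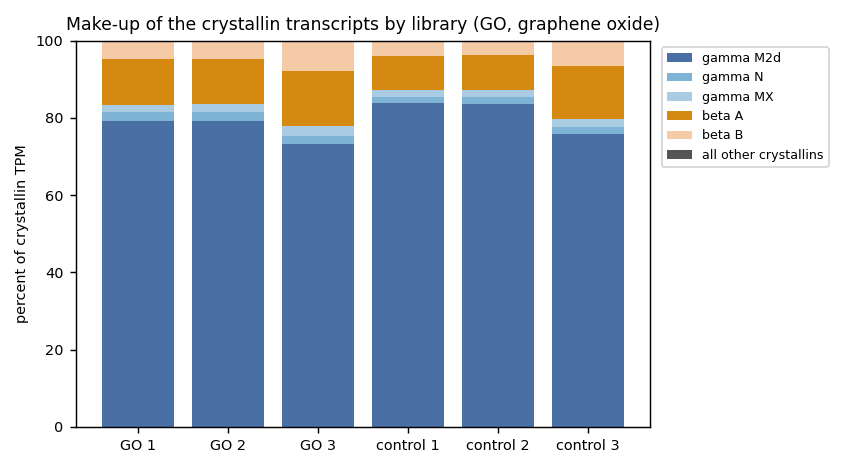
Make-up of the crystallin transcripts in each library, as percent of crystallin TPM, with graphene oxide libraries on the left and control libraries on the right. Gamma M2d genes hold 73.3% to 83.8%, and beta crystallins hold a larger part in the replicate 3 libraries.

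The class make-up varied between libraries. Beta crystallins made up 16.4%, 16.3% and 22.0% of crystallin TPM in graphene oxide replicates 1, 2 and 3 and 12.5%, 12.7% and 20.0% in control replicates 1, 2 and 3. The beta share was thus highest in replicate 3 of both groups, and within each replicate number it was higher with graphene oxide. Gamma crystallins made up 83.6%, 83.7% and 77.9% with graphene oxide, against 87.5%, 87.3% and 79.9% in control. The replicate 3 libraries therefore had more alpha and beta and less gamma crystallin, relative to all crystallins, than replicates 1 and 2 of their group.

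Class totals in TMM-scaled CPM showed how the groups compared. Alpha crystallins summed to 9.33, 9.47 and 20.0 CPM in graphene oxide replicates 1, 2 and 3 and to 3.29, 3.41 and 16.9 CPM in control replicates 1, 2 and 3. Beta crystallins summed to 2987, 2948 and 2203 CPM with graphene oxide and to 1811, 1806 and 2436 CPM in control. For gamma crystallins the totals were 8766, 8640 and 4409 CPM with graphene oxide and 7067, 6911 and 5472 CPM in control. In all 3 classes graphene oxide was above control in replicates 1 and 2. In replicate 3 it was above control for alpha and below control for beta and gamma. The groups overlapped in every class.

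**Figure D3:**
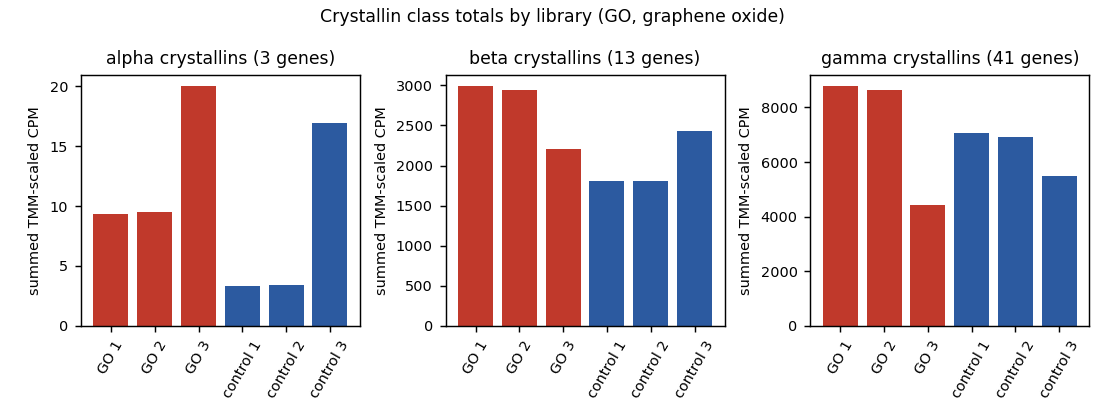
Summed TMM-scaled CPM of the alpha, beta and gamma crystallins in each library, graphene oxide in red and control in blue. Graphene oxide replicates 1 and 2 lie above control replicates 1 and 2 in each class, while the 2 replicate 3 libraries are in the opposite order for beta and gamma.

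The summed crystallin level averaged 9997 ± 2916 CPM in the graphene oxide libraries, against 8509 ± 512 CPM in the control libraries (SD, n = 3 each). By class, the graphene oxide means were 12.9 ± 6.11 CPM for alpha, 2712 ± 442 CPM for beta and 7271 ± 2480 CPM for gamma. The control means were 7.88 ± 7.84 CPM for alpha, 2018 ± 362 CPM for beta and 6484 ± 879 CPM for gamma. The log2 ratios of graphene oxide to control means were 0.71 for alpha, 0.43 for beta and 0.17 for gamma. For alpha and gamma, the difference between group means was smaller than the SD of either group. For beta it was larger than both SDs, and no test was made of class totals. The beta ratio was 0.71 in replicates 1 and 2 alone. Alpha ranged from 0.26 without graphene oxide replicate 3 to 1.95 without control replicate 3, and gamma from 0.0090 without graphene oxide replicate 1 to 0.42 without graphene oxide replicate 3. In whole-tissue RNA, fewer cells of a type and less RNA per cell cannot be told apart.

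With all 6 libraries in the fit, no crystallin gene passed the threshold for a difference between graphene oxide and control. This does not show that the levels were equal. The test was edgeR's quasi-likelihood test on all genes with a mean FPKM of at least 1 (the authors' fragment counts per transcript length and library size), with Benjamini-Hochberg adjustment and a threshold of 0.05. Of the 57 members 43 passed that filter, namely 1 alpha, 11 beta and 31 gamma genes. The nearest to it were crybb1l3 and crygm2b, just inside at 1.17 and 1.86 FPKM, and crygs2 and crybb3, just outside at 0.660 and 0.637 FPKM. Among the 43, 0 were higher and 0 lower, as among all 19313 genes tested, where 0% were called in either direction. The median log2 fold change was 0.23 over the members and -0.0006 over all genes. Unadjusted p-values were under 0.05 for 4 members (9.3%) and for 2.27% of all genes. With the replicate number as a block, 9 members (20.9%) and 14.5% of all genes were under that level, and again none passed the adjusted threshold. In DESeq2 no member with an adjusted p passed either. Of all 19313 genes, with or without an adjusted p, 0.0155% were called higher there and 0.0362% lower. DESeq2 gave no adjusted p to some scarce members, among them cryba1a, crybb1l3, crygn1 and crygmxl1, so these could not be called. In the same test 5 members (11.6%) were under the unadjusted level, against 2.49% of all genes.

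The 4 members with an unadjusted p under 0.05 were all higher with graphene oxide. The gamma MX gene crygmxl1 had a log2 fold change of 0.71 ± 0.26 (SE). Those of cryba1b, crybb1 and cryba1l1 were 0.51 ± 0.19, 0.32 ± 0.12 and 0.65 ± 0.26, and the adjusted p from edgeR was 0.99988 for all 4. For crybb1 the values were 350, 350 and 315 CPM with graphene oxide and 255, 253 and 307 CPM in control, and for crygmxl1 they were 3.14, 3.24 and 3.39 CPM against 2.33, 1.51 and 1.96 CPM. These 2 genes, 4.65% of the tested members, had every graphene oxide library above every control library, as had 3.67% of all genes. In the other direction crygm2d17 alone among the tested members had groups that did not overlap, at 174, 176 and 154 CPM with graphene oxide and 199, 195 and 204 CPM in control. That is 2.33% of members, against 4.09% of all genes. Neither share stands far from the background. The separation of crygm2d17 depended on the scale. In TPM its groups overlapped, at 623, 636 and 532 with graphene oxide and 618, 612 and 704 in control.

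Replicates 1 and 2 alone, without the replicate 3 libraries, differed between the groups in most crystallins. The spread between replicates 1 and 2 was very small, and the labels do not say whether they are repeats of the same material. In edgeR's quasi-likelihood test 33 of 43 members (76.7%) were higher with graphene oxide, where 12.9% of all genes were, and 1 (2.33%) was lower, where 12% of all genes were. The median log2 fold change of the members was 0.40, against -0.0023 over all genes. Among the 912 genes with a mean of at least 100 TPM, 15.8% were higher and 60.7% lower with graphene oxide. Of the 32 crystallins at that level 30 were higher and 1 was lower, so their direction differed from that of most abundant genes.

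**Figure D4:**
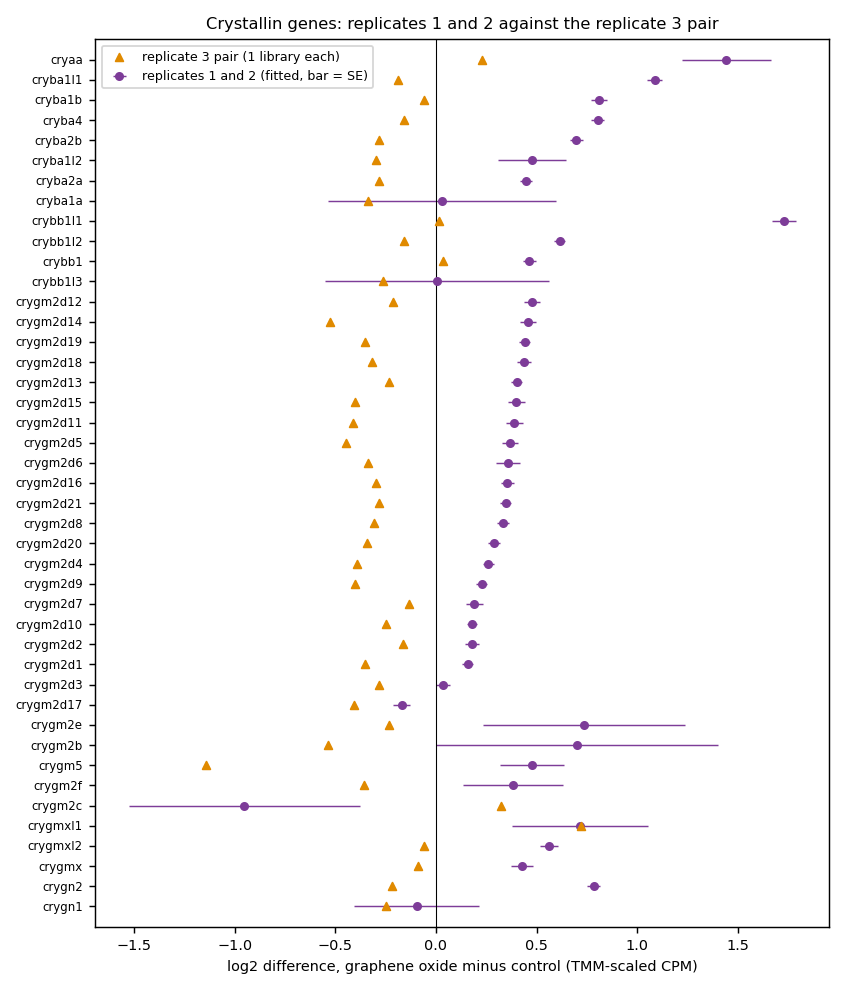
Log2 difference between graphene oxide and control for the 43 tested crystallin genes, ordered by class. Circles with SE bars are the fitted values of replicates 1 and 2, and triangles are the replicate 3 pair, with 1 library per group. Most circles lie right of 0 and 38 of 43 triangles lie left of it.

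By class, the alpha gene cryaa rose in replicates 1 and 2, as did 9 of 11 tested beta and 23 of 31 tested gamma genes. The gene with the largest log2 fold change was crybb1l1, at 1.73 ± 0.06 (SE). Its CPM values were 146 and 141 in graphene oxide replicates 1 and 2 and 42.0 and 44.1 in control replicates 1 and 2. The chaperone gene cryaa followed at 1.44 ± 0.22, with 9.05 and 9.07 CPM against 3.18 and 3.26 CPM. After it came cryba1l1, at 1.09 ± 0.04, with 355 and 350 CPM against 169 and 163 CPM. Only these 3 genes rose by at least 1 on the log2 scale.

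Other abundant beta crystallins rose by less. The log2 fold changes in replicates 1 and 2 were 0.81 ± 0.04 for cryba1b, 0.81 ± 0.03 for cryba4, 0.70 ± 0.03 for cryba2b, 0.61 ± 0.03 for crybb1l2, 0.46 ± 0.03 for crybb1 and 0.45 ± 0.03 for cryba2a. The scarcer cryba1l2 rose by 0.48 ± 0.17. The 2 tested beta genes that did not pass were the near-silent cryba1a, at 0.739 and 1.1 CPM against 1.06 and 0.794 CPM, and crybb1l3, at 0.739 and 1.18 CPM against 1.70 and 0.397 CPM. Their SEs were 0.57 and 0.56, so changes of 0.45 to 0.81, as in the abundant genes of this paragraph, would not have been detectable.

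Gamma crystallins outside the M2d array that rose in replicates 1 and 2 were crygn2 (0.78 ± 0.03), crygmxl2 (0.56 ± 0.04), crygm5 (0.48 ± 0.16) and crygmx (0.43 ± 0.06). Within the array 19 of 21 genes rose. Their log2 fold changes reached at most 0.48 ± 0.04, for crygm2d12, and for the most abundant member crygm2d10 the value was 0.18 ± 0.03. The gene crygm2d3 did not pass, at 277 and 283 CPM against 272 and 274 CPM. The gene crygm2d17 was the only member called lower, by 0.17 ± 0.04 on the log2 scale. Its direction was the opposite in TPM, at 623 and 636 against 618 and 612. That log2 difference was 0.034, below the median of 0.20 over all genes on the TPM scale. Outside the array, the scarce crygm2c had a more negative log2 fold change (-0.95 ± 0.57), which did not pass. The median over the array was 0.35, against 0.61 over the 11 tested beta genes.

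The replicate 3 pair went the other way. Here 38 of 43 members (88.4%) were lower with graphene oxide, where 50.9% of all genes were, and the median log2 difference was -0.28, against -0.0055 over all genes. With 1 library per group the pair has no replicate check of its own. Among genes with a mean of at least 100 TPM, 49% were lower, and of the 32 crystallins at that level 30 were. All 21 gamma M2d genes were lower, with differences between -0.53 and -0.13. Of the tested beta genes 9 of 11 were lower, the exceptions being crybb1 (0.04) and crybb1l1 (0.02). The other members above 0 were cryaa (0.23), crygmxl1 (0.72) and crygm2c (0.32).

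Whether the group effect differed between replicate 3 and replicates 1 and 2 was tested as an interaction in edgeR's quasi-likelihood fit over all 6 libraries. The effect was lower in replicate 3 for 35 of 43 members (81.4%), where it was lower for 7.59% of all genes, and higher for 0 members, where it was higher for 6.63% of all genes. The residual spread in this fit is again that between replicates 1 and 2. A replicate 3 library was assumed to vary as little, which 1 library per group cannot show. The calls and SEs of this fit hold only under that assumption. By class, the 35 were cryaa, 9 of 11 beta and 25 of 31 gamma genes, among them all 21 of the M2d array. The size of the difference was -1.71 ± 0.09 for crybb1l1, -1.28 ± 0.06 for cryba1l1, -1.21 ± 0.29 for cryaa and -1.0 ± 0.06 for crygn2 (log2, SE). For crygm2d10 it was -0.43 ± 0.05 and for crygm2d17 -0.23 ± 0.07. All 32 crystallins with a mean of at least 100 TPM had a lower effect in replicate 3, while among all genes at that level 13.7% had a lower and 45.5% a higher one.

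Crystallins also differed between replicate 3 and the other replicates within a group. Relative to the mean of replicates 1 and 2, replicate 3 had 2.13 times the alpha total, 0.742 times the beta total and 0.507 times the gamma total with graphene oxide. In control the values were 5.05, 1.35 and 0.783 times. Alpha was thus higher and gamma lower in replicate 3 of both groups, while beta was lower with graphene oxide and higher in control. These are descriptions of single libraries with no test.

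Counts of the gamma M2d array are uncertain gene by gene, since the copies are alike and reads can be divided between them. Of the 43 tested members 25 carried fractional estimated counts in 1 or more table rows, and 20 of these were M2d genes. The exception in the array was crygm2d13, whose counts were whole and whose log2 fold change in replicates 1 and 2 was 0.40 ± 0.03. The sum over the array, which division within it leaves unchanged, was 7976, 7858 and 3980 CPM with graphene oxide and 6567, 6416 and 4992 CPM in control. Among the 18 tested members with whole counts throughout, 13 rose and 0 fell in replicates 1 and 2. The same number, 13, had a lower effect in replicate 3. Over all genes 12.9% rose and 12% fell in replicates 1 and 2, and 7.59% had a lower effect in replicate 3. Of the array, these members included crygm2d13 alone.

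Most crystallins lie close to one another in the genome. Gene order was taken from the RefSeq gene table for the assembly GRCz12tu, which was used for order only. In it 44 of the 57 genes stood in runs, where each member was at most 5 gene positions from the next. The longest run held 34 genes, from crygm7 to crygs3, with 5 other genes among them, and included the whole M2d array. Level changed sharply at the ends of the array. The genes crygm2e and crygm2f, which flank it, averaged 3.9 and 13.4 TPM, while every gene of the array averaged at least 189 TPM.

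Beta A and beta B genes stood beside each other in 4 neighbouring pairs. Levels of the pair cryba4 and crybb1 were similar, at 815 and 526 TPM, and those of cryba1a and crybb1l3 were both low, at 2.13 and 1.3 TPM. In the pair cryba1l2 and crybb1l2 the levels differed widely, at 8.23 and 562 TPM. The pair cryba1l1 and crybb1l1 was at 477 and 165 TPM. It held the beta A and the beta B gene with the largest log2 fold changes in replicates 1 and 2.

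Other lens genes were read from a list of 37, of which 34 were found by symbol and 30 were tested. Over all 6 libraries 0 passed in either direction, and their median log2 fold change was 0.11. In replicates 1 and 2, 14 rose and 4 fell in edgeR's test, where 12.9% of all genes rose and 12% fell. The effect in replicate 3 was lower for 12 and higher for 1, against 7.59% and 6.63% of all genes. The 4 with the highest mean TPM were the lens membrane protein genes lim2.4, lim2.1 and lim2.3 and the eye transcription factor gene pax6a. Their values were 89.9, 90.03 and 84.5 against 68.0, 66.8 and 75.9 CPM for lim2.4, and 99.6, 108 and 46.1 against 114, 114 and 54.3 CPM for pax6a, graphene oxide against control. For lim2.1 they were 28.9, 30.1 and 21.8 against 26.0, 24.1 and 30.8 CPM, and for lim2.3 23.7, 23.2 and 16.1 against 22.3, 18.9 and 20.0 CPM. In replicates 1 and 2 lim2.4 rose by 0.42 and pax6a fell by 0.13 on the log2 scale. Neither lim2.1 nor lim2.3 passed there, with log2 fold changes of 0.24 and 0.20.

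Several fibre cell genes of the list followed the pattern of crybb1l1 and cryaa, with low values in control replicates 1 and 2. These were named after their values were seen. The beaded filament gene bfsp1 was at 6.56, 7.65 and 14.6 CPM with graphene oxide and 0.530, 0.715 and 18.3 CPM in control. Its partner bfsp2 was at 37.1, 37.8 and 30.8 CPM against 16.8, 15.8 and 31.5 CPM. The lens heat shock factor gene hsf4, needed for gamma crystallin expression in mouse, was at 3.51, 3.39 and 2.75 CPM against 0.636, 0.556 and 3.15 CPM. In each, graphene oxide replicates 1 and 2 lay well above control replicates 1 and 2, and the replicate 3 libraries were near each other. The lens water channel genes mipa and mipb rose by 0.39 and 0.84 on the log2 scale in replicates 1 and 2. The lengsin gene lgsn rose by 1.26 there, but its control libraries were alike. It was at 29.5, 30.1 and 9.99 CPM with graphene oxide and 11.6, 12.9 and 13.8 CPM in control. Further lens genes of the list also did not follow the pattern of crybb1l1 and cryaa. The scarce lim2.2, with 50 counts in all, had the opposite order in each replicate. It was at 0.277, 0.395 and 1.65 CPM with graphene oxide and 0.954, 0.953 and 0.255 CPM in control. The genes lim2.5, gja3 and gja8a did not pass in replicates 1 and 2, with log2 fold changes of 0.085, 0.12 and 0.36.

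The 4 list members that fell in replicates 1 and 2 were pax6a, pax6b, six3a and six3b, transcription factor genes of the early eye field that are also active in retina and brain. For six3b the values were 43.9, 49.3 and 20.4 CPM with graphene oxide and 62.9, 61.7 and 21.2 CPM in control. Their share of the 30 tested list members was near the 12% of all genes that fell. Another transcription factor gene of the list, mafba, rose by 0.21 on the log2 scale and hsf4 by 2.24, while prox1a, pitx3, sox1a, sox1b and mafa did not pass.

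**Figure D5:**
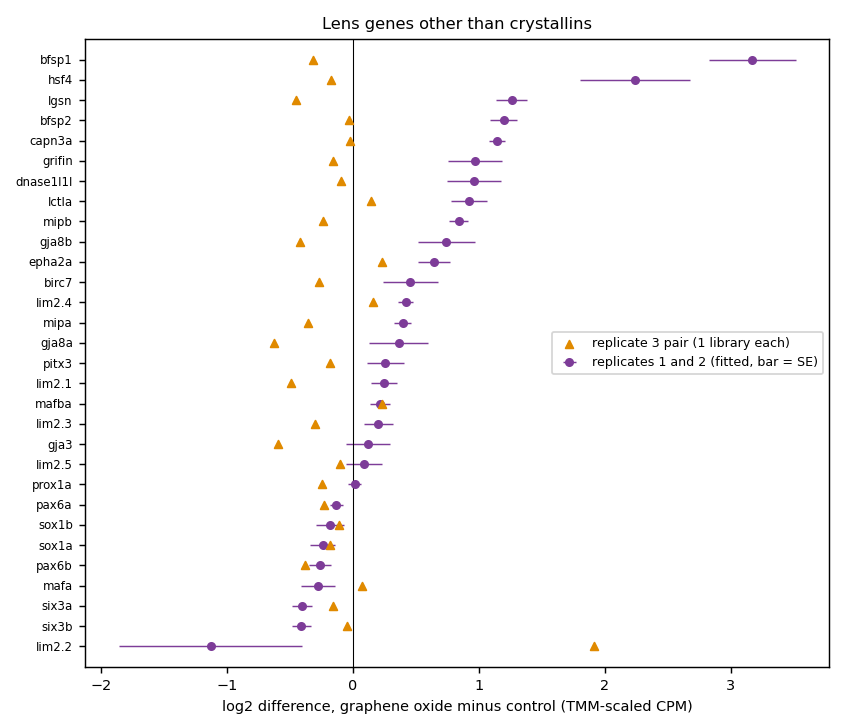
Log2 difference between graphene oxide and control for 30 lens genes other than crystallins. Circles with SE bars are replicates 1 and 2 and triangles the replicate 3 pair. In replicates 1 and 2 bfsp1 and hsf4 have the largest positive values and six3a and six3b are below 0.

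Small heat shock protein genes other than the alpha crystallins did not share one direction. Of 10 genes 9 were tested, and over all 6 libraries 0 passed. In replicates 1 and 2, 3 rose (hspb7, hspb9 and hspb11) and 2 fell (hspb3 and hspb15), with a list median of 0.15. Over all genes 12.9% rose and 12% fell. The muscle and heat-inducible chaperone gene hspb1 was at 18.3, 20.8 and 40.2 CPM with graphene oxide and 16.1, 18.9 and 28.8 CPM in control. Its relative hspb6 was at 11.7, 10.7 and 22.5 CPM against 12.7, 10.6 and 21.9 CPM. The list total was 91.4, 92.6 and 149 CPM against 86.4, 77.0 and 145 CPM, highest in replicate 3 of both groups, as for cryaa.

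Genes listed as markers of other eye tissues had counts in the same libraries, though such genes need not be limited to the eye. All 14 photoreceptor genes had counts, and their sum was 6318, 6253 and 4759 CPM with graphene oxide and 7984, 7953 and 5896 CPM in control. In replicates 1 and 2, 12 of 13 tested photoreceptor genes fell and 0 rose, where 12% of all genes, and 60.7% of those with a mean of at least 100 TPM, fell. All 8 genes of the retinal pigment epithelium list, pigment genes such as pmela, dct and tyr among them, had counts. Their sums were 1370, 1339 and 932 CPM against 1117, 1123 and 1060 CPM. In replicates 1 and 2, 5 of them rose and 1 fell. Over all genes 12.9% rose there, as did 15.8% of those with a mean of at least 100 TPM. The cornea and epidermis list summed to 22991, 23117 and 16145 CPM against 26193, 25914 and 24666 CPM, and the skeletal muscle list to 75441, 75591 and 57586 CPM against 86402, 87032 and 55959 CPM. Among cornea and epidermis genes 3 rose and 7 of 11 fell in replicates 1 and 2, and so did 12 of 13 muscle and 11 of 14 tested hepatocyte genes. The part of these tissue differences in the crystallin values was not tested.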

How the data were processed

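Each of the 6 libraries had 1 table of 43106 rows. Per the file headers, the deposited values are expected counts, TPM and FPKM, the last 2 normalized by the authors for length and depth. Expected counts are estimates that need not be whole. Bowtie2 2.3.2 and GRCz11 are named in the submitters' processing notes. Neither the estimation program nor its strand setting is stated. Rows were summed by gene ID, and 23 of 57 crystallins stood on 2 rows. All 57 gene IDs were in the RefSeq table with the same symbol. That table follows another build (GRCz12tu), so no coordinates are given. No sequence tables were used.

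Expected counts rounded to whole numbers were tested in edgeR 4.0.16 (R 4.3.3) with TMM scaling, the group as the only term and a mean FPKM of at least 1, two-sided. Fits ran on all 19313 genes. Levels between genes are in TPM and differences within a gene in TMM-scaled CPM. Pair differences used an offset of 0.25 CPM. The SE is the size of the log2 change fitted without a prior count, divided by the square root of the F statistic. The log2 fold changes printed beside it use a prior count of 2. For scarce genes their ratio to the SE therefore need not match the p-value. Checks used limma 3.58.1 and DESeq2 1.42.0. The interaction with replicate 3 was added after seeing the data.

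Members and lists were chosen with earlier results of these data known. Named were all alpha, beta, gamma N, gamma S and gamma MX genes, the 8 gamma M genes highest in TPM, the 3 largest called changes per direction in replicates 1 and 2, and the 4 list members highest in TPM. Other names were chosen after their values were seen.

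To see whether replicate numbers pair the libraries, deviations from group means were correlated across genes. The correlation was 0.733, 0.745 and 0.866 for replicates 1, 2 and 3. The group means include replicate 3, so its distance from the others alone makes the values for replicates 1 and 2 positive. The block was fitted as an alternative. Libraries 1 and 2 correlated as well with each other's number (0.741 and 0.724). The correlations therefore set only replicate 3 apart and do not pair replicates 1 and 2. Replicates 1 and 2 of a group differed by more than sampling noise, with a chi-square over its degrees of freedom of 1.56 (graphene oxide) and 1.62 (control). They were counted separately, but this value cannot tell separate animals from repeats of the same material. The common dispersion, edgeR's estimate of spread beyond counting noise, was 0.000716 in replicates 1 and 2 and 0.166 over all 6 libraries.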

Additional observations from a re-analysis of the deposited data

How the results depend on the processing

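Over all 6 libraries, 0 crystallins were called by edgeR with and without the replicate block, with other size factors, without the filter and without any single library, and 0 by DESeq2 and by limma on log2(FPKM + 1). Among all genes these settings also gave 0, except DESeq2 with 10. Replicates 1 and 2 alone gave 34 crystallins and 4810 genes. Without 1 of their 4 libraries, 32 to 33 crystallins were called there, and 33 to 35 for the difference to replicate 3, where a lone library is assumed to vary like the other group. No paired value changed a call, and in the replicate block the members' median log2 fold change was 0.14.

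The log2 ratio of the beta total was 0.43, 0.71 in replicates 1 and 2, and 0.35 to 0.58 without 1 library. That of the alpha total was 0.71, and 0.26 to 1.95 without 1 library, the ends coming without graphene oxide replicate 3 and without control replicate 3. For gamma the range was 0.0090 to 0.42, lowest without graphene oxide replicate 1, and for all crystallins 0.099 to 0.46. In TPM the median gene shifted by 0.14 over all 6 libraries and 0.20 in replicates 1 and 2, against which the crystallin medians lay at 0.61 in replicates 1 and 2 on that scale.

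Single genes with a log2 fold change near 0 changed sign without 1 library. The ranges were -0.53 to 0.35 for cryba1a, -0.55 to 0.085 for crybb1l3, -0.48 to 0.18 for crygn1, -0.077 to 0.34 for crygm2d10, -0.056 to 0.34 for crygm2d4, -0.11 to 0.23 for crygm2d1, -0.048 to 0.50 for crygm2d20 and -0.25 to 0.26 for crygm2d3. In replicates 1 and 2, cryba1a (0.028), crybb1l3 (0.0040) and crygm2d3 (0.036) were above 0, and in the replicate block crygm2d1 was at -0.011. The cause was not tested. Depth limits the scarce genes: the SE in replicates 1 and 2 was 0.57 for cryba1a.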
